A study of Mus musculus with 15 samples.

Results

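Prom1, Prom2 and Cdhr1 were read in 6 RNA-seq libraries of mouse RPE/choroid, the retinal pigment epithelium with the vascular layer under it. They were chosen by gene symbol as the 2 prominin genes and a cadherin that binds prominin-1, and are 3 of the 25038 genes in that count table. Of the 3, only Cdhr1 was also read in cultured mouse RPE cells (mRPE), in a table of 20910 genes. Prom1 and Prom2 were not analysed here in those cells. The question was whether Prom1 is lower in tissue labelled knockout, and beside which cell types its level lies.

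The tissue comprised 3 WT libraries and 3 labelled Prom1-KO. They are taken as RPE/choroid because their labels name RPE with no cell line and the series design names RPE/choroid, while the extraction described in the labels is that of the cells. The knockout tissue came from Prom1fl/fl mice crossed with RPE65-Cre mice and given tamoxifen by gavage, a design meant to delete Prom1 in RPE and spare photoreceptors. The labels give the other mice as WT and state neither tamoxifen, Cre nor floxed alleles for them, and the age of the animals behind each library is not given. The study describes young adult C57BL/6J mice of both sexes but no floxed mice. Whether that strain, age and sex hold for the tissue animals is not stated there. The mRPE cells were pooled from C57BL/6J mice, immortalized with HPV E6/E7, given Cas9 by lentivirus and a Prom1 guide RNA, and grown as clones KO22 (3 libraries) and KO26 (2 libraries), with 4 WT libraries. Each knockout group of cells is thus 1 clone, and the study left both KO26 libraries out of its own comparison after they stood apart from the others. The labels do not say that the libraries of a group came from separate animals or cultures, so p-values measure the spread between these libraries.

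Prominin-1 is a membrane glycoprotein of plasma membrane protrusions. In rods and cones it lies at the base of the outer segment, where new discs form as evaginations of the ciliary membrane, and loss of it leads to photoreceptor degeneration. Cdhr1, also called photoreceptor cadherin or protocadherin-21, lies at the edges of the same nascent discs and binds prominin-1. Prominin-2 is the paralogue of prominin-1 and is found mainly in epithelia. Prominin-1 has also been described in RPE, where it has been linked to autophagy.

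Prom1 (ENSMUSG00000029086) lies on the minus strand of chr5:44150962-44259395 of GRCm39, the build of the files. The guide used to cut it in the cells matched 1 place in that genome, chr5:44213310-44213329 on the minus strand, inside exon 5 of the 28 exons of the canonical transcript. The study reports deletions at separate sites of Prom1 in its independent lines, so this site alone does not define each clone. The site is shown because its guide was used to make the clones. The protospacer is in lower case and the PAM, the bases Cas9 requires beside its target, in capitals.
Prom1 guide site: cgttgctgcaacaaatgcggCGG

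Prom1 has 2 entries in the RefSeq promoter table, which is on GRCm38.p6. The counts are sums over the whole gene, so they cannot show which start, or which exons, were read, and a transcript that lacks a deleted exon can still be counted. The 250 bases before each start are shown 5′ to 3′ on the minus strand, since the level discussed here is the sum over transcripts from both, chr5:44101737-44101986 for the first and chr5:44094769-44095018 for the second.
Prom1 start 1: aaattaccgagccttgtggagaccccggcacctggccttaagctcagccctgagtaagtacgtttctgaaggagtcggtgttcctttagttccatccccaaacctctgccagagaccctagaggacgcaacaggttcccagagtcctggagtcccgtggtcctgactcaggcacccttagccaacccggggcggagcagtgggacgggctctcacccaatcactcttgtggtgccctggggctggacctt
Prom1 start 2: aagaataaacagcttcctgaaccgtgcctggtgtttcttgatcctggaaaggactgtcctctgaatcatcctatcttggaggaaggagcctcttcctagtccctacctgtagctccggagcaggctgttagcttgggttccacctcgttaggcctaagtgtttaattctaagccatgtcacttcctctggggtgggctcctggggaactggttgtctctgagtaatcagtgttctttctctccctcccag

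TAATCC, the letters the photoreceptor factor CRX prefers, and the E-boxes CACGTG and CATGTG, which MITF of pigment cells binds, were searched on both strands of these windows. No match was found, so no letter is in capitals. The same search found TAATCC before the Prom2 start and no match before the Cdhr1 start. Binding was not tested. Over the same 250 bases of all 32851 promoters in the table, TAATCC was in 6.25%, CACGTG in 6.02% and CATGTG in 12.3%.

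Prom2 (ENSMUSG00000027376) lies on the minus strand of chr2:127368393-127383387 and Cdhr1 (ENSMUSG00000021803) on the minus strand of chr14:36799807-36820484. The annotated RNA genes Gm16401 and Gm73071, on the opposite strand, share 869 and 385 exonic bases with Prom1. Gm16401 had 404 counts over the 6 libraries. Gm35478 shares 508 bases with Prom2 in the same way. The study describes a stranded kit in its account of the cells. Neither the kit of the tissue libraries nor the strand setting of the counting is given in the sources used here. How reads from these shared bases were assigned thus cannot be told.

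The tissue libraries held 48154444 to 61766179 counts, of which 64.93% to 71.31% fell on mitochondrially encoded genes in 5 of them. The labelled Prom1-KO library 3 stood apart at 84.17%, with 9776466 other counts against 13814072 to 19655673 in the others and a TMM scaling factor of 0.4884 against 1.07 to 1.326. Fits and ratios of the members are given with and without it. The mRPE libraries held 8076188 to 27537863 counts. The mitochondrial ribosomal RNAs mt-Rnr1 and mt-Rnr2 took 55.28% to 63.19% of all counts in 5 tissue libraries and 80.36% in labelled Prom1-KO library 3. In the mRPE libraries they took 11.11% to 19.03%.

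Prom1 was not detectably lower in the tissue labelled Prom1-KO. Its raw counts were 3472, 2930 and 3659 in the WT libraries and 2570, 2947 and 1071 in the labelled Prom1-KO libraries. As CPM, counts scaled to each library's total with TMM's correction for composition, these were 48.7, 49.6 and 53.3 in WT and 49.9, 48.1 and 35.5 in labelled Prom1-KO. Labelled Prom1-KO library 1 lay inside the WT range, library 2 just under the lowest WT value, and library 3 well below, so the groups overlapped.

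**Figure D1:**
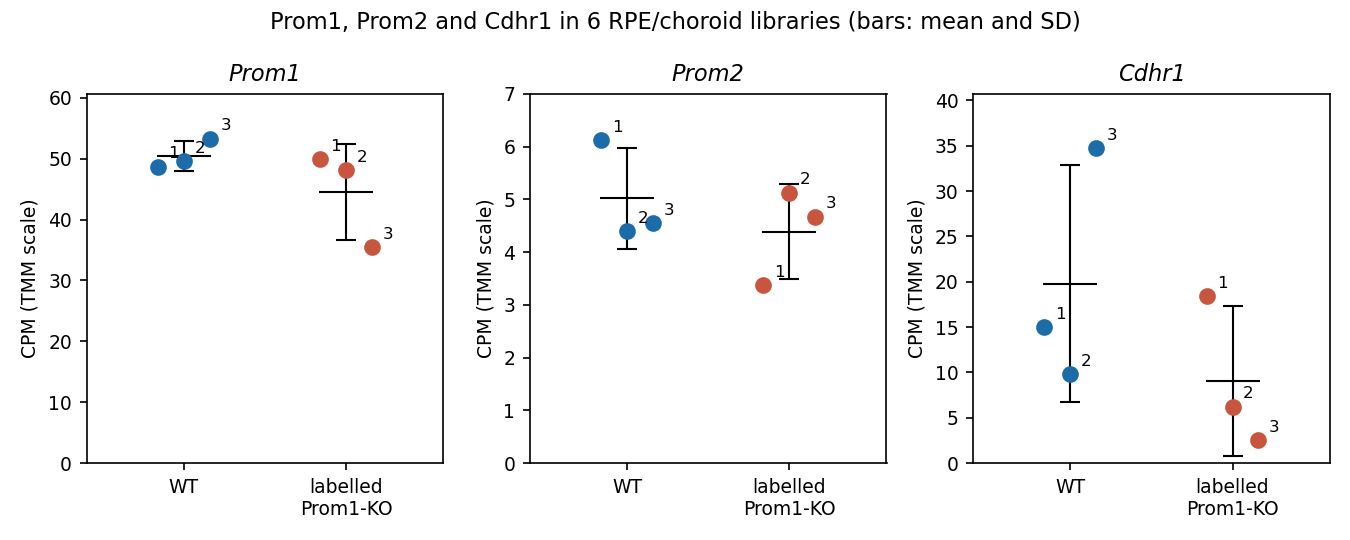
TMM-scaled CPM of Prom1, Prom2 and Cdhr1 (y axes, each from 0) in the 3 WT and 3 labelled Prom1-KO RPE/choroid libraries, numbered by library, with bars for the mean and SD. Prom1 lay at 48.1 to 53.3 CPM in 5 libraries and at 35.5 CPM in labelled Prom1-KO library 3, while Cdhr1 ran from 2.55 to 34.7 CPM.

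The mean level of Prom1 was 50.5 ± 2.46 CPM in WT and 44.5 ± 7.84 CPM in labelled Prom1-KO (SD, n = 3 each). The fitted log2 fold change was -0.18 (SE 0.16, 95% interval -0.49 to 0.13), with an adjusted p of 0.824 in edgeR's quasi-likelihood test. None of the 3 members passed an adjusted p under 0.05 with an absolute log2 fold change over 1.2, where 0.189% of the 24926 genes tested passed as lower and 0% as higher. At an unadjusted p under 0.05 there were 2068 genes in either direction, and DESeq2 called 84 higher and 189 lower.

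Without labelled Prom1-KO library 3 the log2 fold change of Prom1 was -0.06, with an adjusted p of 0.953 in the same edgeR test. The 95% interval over all 6 libraries reached down to -0.49. It is a normal approximation, which is narrow for so few libraries, so larger decreases are not excluded. When mitochondrially encoded genes were left out of the library totals, Prom1 was at 177, 181 and 202 CPM in WT and at 186, 178 and 110 CPM in labelled Prom1-KO. Library 3 was the low one on that scale too.

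**Figure D2:**
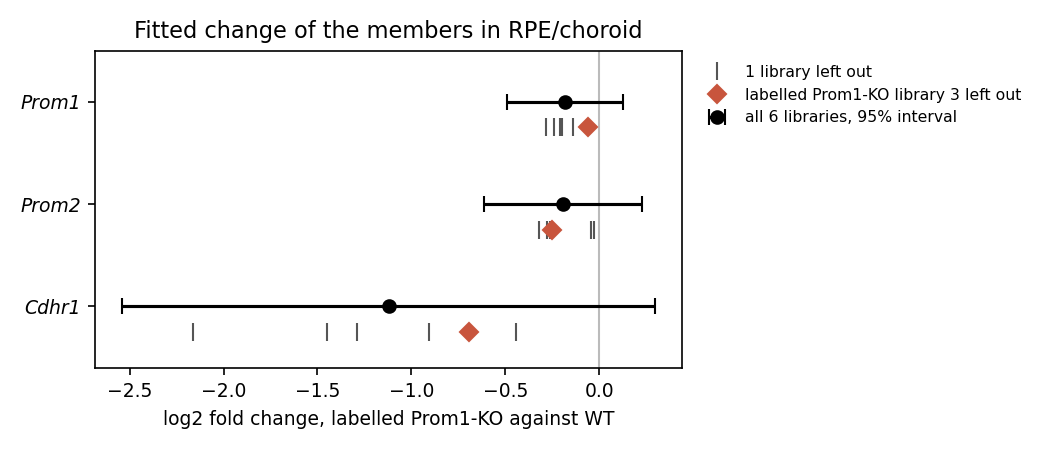
Fitted log2 fold change of each member in RPE/choroid, labelled Prom1-KO against WT (x axis, 0 for no difference), with its 95% interval over all 6 libraries as a black bar and the value with each library left out below it. Each interval crosses 0, and the value of Prom1 without labelled Prom1-KO library 3 was -0.06.

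The level of Prom1 varied little. The highest library exceeded the lowest 1.5-fold over all 6, and 25.7% of the genes tested had a smaller ratio. Over the 5 libraries other than labelled Prom1-KO library 3 that ratio was 1.11, and 2.3% of genes had a smaller one, with a median over genes of 1.7.

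Markers of the labelled tissue did not hold their level in the same libraries. Rpe65, the retinoid isomerohydrolase whose promoter drives Cre here, stood at 280, 204 and 287 CPM in WT and at 1.13, 5.98 and 4.48 CPM in labelled Prom1-KO. The groups lay far apart, with a log2 fold change of -6.06 (SE 0.62, adjusted p = 0.0191 in edgeR). Rgr, an opsin of the RPE, was also lower, at 759, 546 and 786 against 6.7, 30.7 and 18.3 CPM.

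Of 11 RPE markers tested, 6 were called lower and none higher, where 0.189% of all genes tested were called lower and 0% higher. All 11 had a negative log2 fold change, with a median of -2.1 against 0.0137 over all genes tested. The other 4 called lower were Lrat and Rdh5, which act in the retinoid cycle, Rrh, an opsin, and Slc16a8, the lactate transporter MCT3. Ttr, a thyroxine and retinol carrier with the most counts in the list, had a log2 fold change of -3.01 and an adjusted p of 0.0709 in edgeR, and did not pass. Best1, a chloride channel of the RPE, was at 1.02 to 1.72 CPM in WT and 0.735 to 1.86 CPM in labelled Prom1-KO. With 1 library left out, 2 of the 6 remained called without labelled Prom1-KO library 2, 3 without any one WT library, 4 without labelled Prom1-KO library 3 and 5 without labelled Prom1-KO library 1, and none changed sign. The median then lay between -2.29 and -2.

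The summed level of the RPE list was 2500, 1580 and 2280 CPM in WT and 174, 306 and 240 CPM in labelled Prom1-KO. The groups did not overlap, whereas those of Prom1 did. In bulk tissue, fewer RPE cells and less of these RNAs per cell cannot be told apart. Among the other cell type lists, only the corneal and endothelial sums did not overlap between the groups (values below). Corneal sums were narrowly higher and endothelial sums lower in labelled Prom1-KO. None of their genes was called, and the corneal genes other than Krt12 overlapped between the groups. The part of other cell types in these levels, and whether dissection differed between the groups, was not tested.

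Set against this sum in each library, the log2 ratio of Prom1 to the RPE list was -5.68, -4.99 and -5.42 in WT and -1.8, -2.67 and -2.75 in labelled Prom1-KO. Every labelled Prom1-KO library was above every WT library. The difference was 2.95 (two-sided exact permutation p = 0.1, the smallest that 3 against 3 libraries can give). The difference was 3.13 without labelled Prom1-KO library 3. It follows from the lower RPE sum beside a Prom1 level that varied little, and is not a separate result on Prom1.

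**Figure D3:**
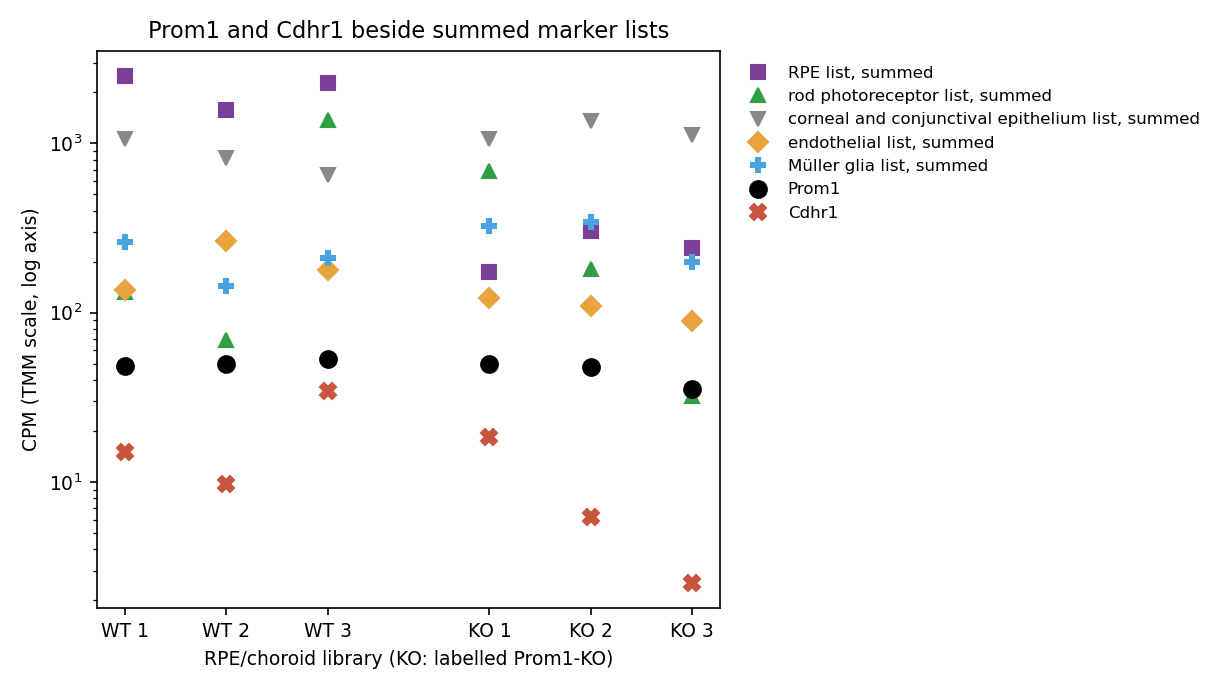
CPM on the TMM scale (log axis) of Prom1, Cdhr1 and the summed marker lists of 5 cell types in each RPE/choroid library. The RPE sum was 1580 to 2500 CPM in WT and 174 to 306 CPM in labelled Prom1-KO, the rod sum ran from 32.1 to 1370 CPM with both groups overlapping, and Prom1 stayed between 35.5 and 53.3 CPM.

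Rods are the cells best known for making prominin-1, and their RNA was present in very unequal amounts. The 15 rod markers read, of 16 listed, summed to 133, 69.1 and 1370 CPM in WT and to 690, 181 and 32.1 CPM in labelled Prom1-KO. WT library 3 and labelled Prom1-KO library 1 were the rod-rich ones, so the amount did not follow the labels. None of the 15 passed the test in either direction, and their median log2 fold change was -0.68. The sign of that median rested on 1 library, as it was 2.1 without WT library 3, -2.16 without labelled Prom1-KO library 1 and -0.19 without labelled Prom1-KO library 3.

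Prom1 spanned a smaller range, 1.5-fold over the 6 libraries against 42.7-fold for the rod sum. WT library 3 had a rod sum of 1370 CPM and Prom1 at 53.3 CPM, and WT library 2 had a rod sum of 69.1 CPM and Prom1 at 49.6 CPM. The log2 ratio of Prom1 to the rod list was -1.45, -0.48 and -4.68 in WT and -3.79, -1.91 and 0.147 in labelled Prom1-KO, with a difference of 0.35 (two-sided exact permutation p = 0.8). Without labelled Prom1-KO library 3 it was -0.65, and without WT library 3 it was -0.89, so its direction rests on single libraries.

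Other cell types of the eye were read in both groups. The 8 cone markers read summed to 14.2 to 38 CPM in WT and 14.2 to 20.7 CPM in labelled Prom1-KO, and the 7 bipolar cell markers to 17.8 to 40.4 and 19.5 to 35.9 CPM. Pde6h, a subunit of the cone phosphodiesterase, Opn1sw, the short-wavelength opsin, and Gnat2, the cone transducin, led the cone list. Pde6h was at 6.79 to 8.44 CPM in WT and 6.27 to 8.16 CPM in labelled Prom1-KO. Opn1sw was at 0.507 to 10.7 and 0.332 to 0.796 CPM, which overlapped, with a log2 fold change of -3.01 (adjusted p = 0.503 in edgeR). Prkca and Pcp2 were among the leading genes of the bipolar list. Neither list had a called gene.

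The amacrine, horizontal and ganglion cell list had 8 of 9 markers read and 7 tested, none called, and summed to 63.9 to 74.4 CPM in WT and 68.8 to 73 CPM in labelled Prom1-KO. Its sum came almost wholly from Rbpms, Tfap2b and Slc6a9. Gad1, an enzyme of GABA synthesis that marks amacrine cells, was at 0.0338 to 3.18 CPM. The 5 Müller glia markers, led by Glul, Slc1a3 and Aqp4, summed to 144 to 260 CPM in WT and 200 to 342 CPM in labelled Prom1-KO, with a median log2 fold change of 1.48 and none called. Slc1a3 was at 2.23 to 7.75 CPM in WT and 14.5 to 31.4 CPM in labelled Prom1-KO, without overlap. Glul and Aqp4 overlapped between the groups.

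Choroidal and stromal markers were abundant in both groups. The 9 endothelial markers, led by the VEGF receptors Flt1 and Kdr and by Emcn, summed to 136, 264 and 179 CPM in WT and to 123, 110 and 89.3 CPM in labelled Prom1-KO. These sums did not overlap, though none of the 9 genes was called, and the median log2 fold change was -0.88. The pericyte and smooth muscle list (Rgs5, Myh11, Acta2) summed to 368 to 443 and 341 to 388 CPM, the fibroblast list (Dcn, Col1a2, Lum) to 889 to 1870 and 778 to 1800 CPM, and the macrophage list (Lyz2, Cd68, Csf1r) to 280 to 353 and 231 to 321 CPM. None of these genes was called.

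RNA of cells outside RPE, choroid and retina was also read. The 4 corneal and conjunctival markers summed to 1060, 824 and 647 CPM in WT and to 1060, 1360 and 1120 CPM in labelled Prom1-KO, and the lowest labelled Prom1-KO sum was just above the highest WT sum. Krt12, the corneal keratin, was at 317, 140 and 205 CPM in WT and 398, 480 and 546 CPM in labelled Prom1-KO, which did not overlap, with a log2 fold change of 1.11 and an adjusted p of 0.336 in edgeR. Krt5, a basal epithelial keratin, was at 365 to 611 and 506 to 706 CPM. The 4 ciliary epithelium markers, led by Slc4a4, Optc and Zic1, summed to 34.6 to 130 and 76.6 to 189 CPM. The melanocyte and Schwann cell list (Ednrb and Mlana among its leading genes) summed to 168 to 211 and 144 to 242 CPM. Skeletal muscle markers (Tnnt3, Acta1, Ckm) summed to 67.4 to 188 and 18.8 to 231 CPM, and the 2 lens markers read of 7, Bfsp1 and Mip, to under 1 CPM in each library. None was called.

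The ratio of Prom1 to each of these sums was compared over the 6 libraries by its highest value over its lowest. That spread was 28.4-fold for rods, 17.3-fold for skeletal muscle, 14.7-fold for RPE and 5.42-fold for ciliary epithelium. It was 1.6-fold both for pericytes and smooth muscle and for the amacrine, horizontal and ganglion cell list, 1.89-fold for macrophages and 2-fold for melanocytes and Schwann cells. A low spread here also follows from any pair of genes that each vary little, so it names no source. No cell type was tested as the source of the Prom1 counts.

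Prom2 was below Prom1 in each library of both groups. Its counts were 436, 260 and 312 in WT and 174, 314 and 141 in labelled Prom1-KO. On the TMM scale it stood at 6.12, 4.4 and 4.55 CPM in WT and 3.38, 5.13 and 4.67 CPM in labelled Prom1-KO. The highest value was in WT and the lowest in labelled Prom1-KO, with the other 2 labelled Prom1-KO libraries between WT values, so the groups overlapped.

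The means of Prom2 were 5.02 ± 0.952 and 4.39 ± 0.908 CPM (SD, n = 3 each), and its log2 fold change was -0.19 (SE 0.22, 95% interval -0.62 to 0.23, adjusted p = 0.866 in edgeR). That fold change was -0.25 without labelled Prom1-KO library 3 (adjusted p = 0.867 in edgeR). The highest Prom2 library exceeded the lowest 1.81-fold, both with and without that library. Per kilobase of exon, WT levels were 6.51 ± 0.317 CPM for Prom1, 4.02 ± 2.66 CPM for Cdhr1 and 0.968 ± 0.184 CPM for Prom2 (SD, n = 3). Prom1 and Cdhr1 did not differ beyond the spread of Cdhr1, whose 3 libraries ran from 1.98 to 7.04 CPM per kilobase, and Prom2 was below the other two in each WT library. In labelled Prom1-KO library 3 alone, Cdhr1 at 0.517 was below Prom2 at 0.901 CPM per kilobase. On the same scale Rpe65 was at 132 and Prph2 at 8.83 CPM per kilobase in WT. Of 24826 genes, 63.6% lay below Prom2 in WT on that scale, against 95.8% for Prom1 and 92.3% for Cdhr1.

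Cdhr1 varied most of the 3. Its counts were 1070, 578 and 2381 in WT and 949, 382 and 77 in labelled Prom1-KO, which is 15, 9.78 and 34.7 CPM and 18.4, 6.24 and 2.55 CPM. The highest value was WT library 3 and the next labelled Prom1-KO library 1, the same rod-rich libraries as above. The groups overlapped, with means of 19.8 ± 13.1 and 9.07 ± 8.31 CPM (SD, n = 3 each).

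The log2 fold change of Cdhr1 was -1.12 (SE 0.72, 95% interval -2.54 to 0.3, adjusted p = 0.751 in edgeR). It was -0.7 without labelled Prom1-KO library 3, -0.44 without WT library 3 and -2.16 without labelled Prom1-KO library 1, and passed in none of these. Its highest library exceeded its lowest 13.6-fold, and 93.5% of genes had a smaller ratio. Over the 5 libraries other than labelled Prom1-KO library 3 the ratio was 5.56.

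Cdhr1 did not keep one ratio to rod RNA. WT library 1 and labelled Prom1-KO library 2 had rod sums of 133 and 181 CPM, while Cdhr1 was at 15 and 6.24 CPM. The log2 ratio of Cdhr1 to the rod list was -3.15, -2.82 and -5.3 in WT and -5.23, -4.86 and -3.65 in labelled Prom1-KO. The difference was -0.82 (two-sided exact permutation p = 0.4), and the groups overlapped. It was -1.29 without labelled Prom1-KO library 3 and -1.6 without WT library 3.

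The genes that build the disc rim and outer segment base, where prominin-1 and Cdhr1 work, were read for all 12 listed. None passed in either direction, and the median log2 fold change was -0.28. It was 0.62 without WT library 3, -1.16 without labelled Prom1-KO library 1 and -0.05 without labelled Prom1-KO library 3, so its sign rested on 1 library. Prph2, the tetraspanin peripherin of the disc rim, was at 4.53, 2.01 and 73 CPM in WT and 30.2, 8.02 and 0.796 CPM in labelled Prom1-KO, and its partner Rom1 at 6.52, 3.42 and 25.5 against 10.6, 3.22 and 1.13 CPM. Both were highest in the rod-rich libraries, WT library 3 and labelled Prom1-KO library 1. The axonemal proteins Rp1 and Rp1l1 and the trafficking protein Tulp1 had log2 fold changes of -0.39, -0.61 and -0.7.

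Fscn2, an actin bundler, Pcare, an actin regulator of disc formation, and its partner Wasf3 had log2 fold changes of -0.25, -0.1 and -0.02. Rab28, a small GTPase of cone disc shedding, had -0.09. Abca4, the retinoid flippase of disc rims, was at 27.8 to 77.4 CPM in WT and 17.3 to 66.6 CPM in labelled Prom1-KO, a log2 fold change of -0.32. Rp2, a GTPase-activating protein of ciliary trafficking, was at 9.82, 10.1 and 10.1 CPM in WT and 11.7, 11.6 and 13.1 CPM in labelled Prom1-KO. Those groups did not overlap, yet its adjusted p in edgeR was 0.603.

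Of the 5 genes listed as binding prominin-1, none was called and the median log2 fold change was -0.05. Pik3r1, the regulatory subunit of phosphoinositide 3-kinase, was at 66.2 to 69.4 CPM in WT and 57.3 to 73.1 CPM in labelled Prom1-KO. Hdac6, a cytoplasmic deacetylase, was at 2.38 to 3.09 and 2.39 to 2.81 CPM, and Arl13b, a ciliary GTPase, at 3.59 to 5.23 and 4.08 to 4.74 CPM. Ttyh1, a membrane protein found with prominin-1 in protrusions, was at 4.07, 3.26 and 13.3 CPM in WT and 15.1, 12.1 and 6.03 CPM in labelled Prom1-KO, a log2 fold change of 0.69 (SE 0.57). The summed level of the 5, which Pik3r1 dominates, had the smallest spread of its ratio to Prom1 among the marker and gene lists, 1.37-fold, and Cdhr1 is itself one of the 5.

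Of 6 cadherin-related kin of Cdhr1, 4 were read and none was called. Pcdh15, the tip-link protocadherin that photoreceptors also make, was at 3.46, 1.34 and 31.6 CPM in WT and 30.1, 9.85 and 3.28 CPM in labelled Prom1-KO, high in the same rod-rich libraries as Cdhr1. Cdh23, its partner, was at 2.75 to 3.09 and 1.16 to 2.55 CPM, and its fitted log2 change of -0.59 did not pass (adjusted p = 0.655 in edgeR). Cdhr3 and Cdhr4 were below 0.3 CPM in each library.

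The genes most like each member were taken as those with the highest Pearson r of log2 CPM over the 6 tissue libraries, among 15877 other genes with a mean of at least 50 counts, which all share depth and composition. For Prom1 these were Btbd9 (r = 0.9975), AU022252, Ggcx, Tmem201, Gm21844, Gtf2ird1, Pdzk1, Crtc1, Grin3b and Gm57047 (r = 0.9903), and 201 genes had r over 0.95. Over the libraries other than labelled Prom1-KO library 3 the same 10 genes had r of 0.888 to 0.999. They were picked with those libraries included, so this is no separate check. No photoreceptor or RPE marker of the lists was among the 10.

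For Prom2 the closest was ENSMUSG00000120803, which has no symbol in the table (r = 0.9944), followed by Mpc1, 1700088E04Rik, Gm5617, Gm45053, 4931406C07Rik, Rreb1, Sorl1, Bcl7b and 2410002F23Rik, and 11 genes had r over 0.95. For Cdhr1 it was Lrit2, a leucine-rich repeat protein (r = 0.9956), then Prepl, Arsa, Amer2, 1700110K17Rik, Optn, Slc25a22, Tlcd5, Tmem108 and Osbp2 (r = 0.985), and 87 genes had r over 0.95. With the summed rod list Cdhr1 had r of 0.87 over the 6 libraries, Prom1 0.752 and Prom2 -0.373. Without labelled Prom1-KO library 3 these were 0.781, 0.759 and -0.46. With the cone list Cdhr1 and Prom1 had r of 0.778 and 0.537 over the 6 libraries, and 0.876 and 0.941 without that library. With the fibroblast list Prom1 had -0.288 over the 6 libraries and 0.802 without that library. These values do not single out rods, and they describe 6 libraries only.

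In cultured mRPE cells, Cdhr1 was read at low counts in WT and KO22 and was higher in KO26. Its counts were 8, 27, 7 and 16 in WT, 7, 15 and 10 in KO22, and 58 and 46 in KO26. On the TMM scale it was at 0.318, 1.85, 0.687 and 1.15 CPM in WT, 0.605, 0.724 and 0.776 CPM in KO22, and 2.69 and 5.32 CPM in KO26. Both KO26 libraries were above all 7 others, while KO22 lay inside the WT range.

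**Figure D4:**
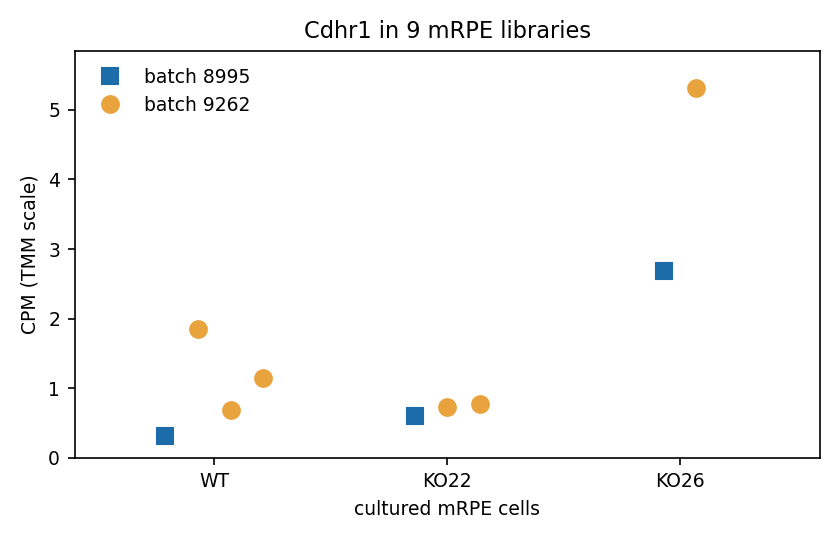
TMM-scaled CPM of Cdhr1 (y axis, from 0) in 4 WT, 3 KO22 and 2 KO26 libraries of mRPE cells, with squares for library batch 8995 and circles for batch 9262. The KO26 libraries, at 2.69 and 5.32 CPM, lay above the WT and KO22 libraries, the highest of which was at 1.85 CPM.

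KO26 differed from WT by a log2 fold change of 2.31 (SE 0.43, 95% interval 1.47 to 3.15), with an adjusted p of 0.0194 in edgeR's fit over all 9 libraries with batch as a term. Cdhr1 was thus the 1 member of 1 tested that was called higher, where 1.21% of 20737 genes were called higher and 0.719% lower. The call was lost without the batch term, and without WT library 1, 3 or 4 or either KO26 library. The log2 fold change was 1.99 without the batch term (adjusted p = 0.113) and 1.95 to 2.63 with a library left out, with adjusted p of 0.00048 to 0.115.

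KO22 did not differ detectably from WT, with a log2 fold change of -0.37 (SE 0.48, 95% interval -1.31 to 0.57, adjusted p = 0.539 in edgeR). In that comparison 11.4% of 20455 genes were called higher and 13.8% lower. Between the clones, KO22 was below KO26 by a log2 difference of -2.69 (SE 0.47, adjusted p = 0.00164 in edgeR), where 7.56% of 20737 genes were called higher in KO22 and 10.7% lower. That call held with each library left out and without the batch term. It shares the KO26 libraries with the comparison of KO26 and WT.

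Within batch 8995, Cdhr1 was at 0.318 CPM in WT, 0.605 CPM in KO22 and 2.69 CPM in KO26. Within batch 9262 it was at 0.687 to 1.85 CPM in WT, 0.724 to 0.776 CPM in KO22 and 5.32 CPM in KO26. KO26 was the highest in both. Per kilobase of exon, Cdhr1 was at 0.203 ± 0.134 CPM in WT cells (SD, n = 4), against 4.02 CPM in WT tissue. The cells and the tissue are separate tables, so that last pair of levels is given side by side only.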

How the data were processed

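PolyA RNA was sequenced from 6 RPE/choroid and 9 mRPE libraries, grouped by genotype and cell line label. Per the labels' processing notes, the authors trimmed reads with Trim Galore 0.6.7, aligned them to mm39 with STAR and used DESeq2 1.42.0. The values used here are the raw read counts per gene that the authors deposited. The normalized signal values that the authors deposited equal these counts divided by 1 size factor per library and entered no test. For the tissue, nothing beyond the labels states the processing.

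Tests were run in edgeR 4.0.16 (R 4.3.3) by quasi-likelihood on TMM-scaled libraries. A gene was tested if 3 or more libraries had 5 or more counts for it, and p-values were adjusted by Benjamini-Hochberg over all genes tested. The mRPE fits had a batch term, taken from the library names. KO22 was compared with WT over 7 libraries, and both clones over 9. DESeq2 1.42.0 served as an alternative. The scripts were tested on simulated data. CPM in the text is on the TMM scale, log2 CPM used a prior count of 2, and levels per kilobase used the union of annotated exons of GRCm39. Log2 ratios of members to list sums were compared by exact permutation tests.

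Named were the members, the genes of the outer segment, binding partner and cadherin lists, Rpe65, the 3 marker genes with the most counts per list, called markers, and the 10 genes most like each member. Some marker genes that the rule names are not reported here. Gad1 and Best1 were named outside this rule, after their values were seen. Members and lists were chosen with earlier results of these data known. Levels without labelled Prom1-KO library 3 were added after seeing the data. Prom1 and Prom2 in mRPE were not analysed here.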

Additional observations from a re-analysis of the deposited data

Results flagged for a closer look

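The difference in Cdhr1 between the 2 clones was tested directly and passed. Its log2 fold change was -2.69 for KO22 against KO26 (SE 0.474, adjusted p = 0.00164 in edgeR over all 9 mRPE libraries), with all 3 KO22 libraries (0.605 to 0.776 CPM) below both KO26 libraries (2.69 and 5.32 CPM). KO26 comprised 2 libraries of 1 clone, and the result rests on them. The study left both out of its own comparison after they stood apart from the others. Its counts of 58 and 46 reads were low.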

How the results depend on the processing

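Prom1, Prom2 and Cdhr1 in RPE/choroid kept their direction and stayed uncalled under the median-of-ratios scaling and the Wald test of DESeq2, with filterByExpr or no filter on counts, with mitochondrially encoded genes left out, and with each library left out. Their log2 fold changes with a library left out were -0.282 to -0.0575, -0.322 to -0.0261 and -2.16 to -0.442. The numbers of genes called in that tissue moved, from 0 higher to 84 with DESeq2 and 1 with filterByExpr or without mitochondrially encoded genes, and from 47 lower to 189 with DESeq2. With a library left out they were 0 to 5 higher and 9 to 37 lower, with 37 lower without labelled Prom1-KO library 3 and 9 to 28 without any one of the others. The log2 ratio of Prom1 to the rod list ranged from -0.889 to 1.32 with a library left out, turning negative without WT library 3 or labelled Prom1-KO library 3, and the cause was not tested.

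Cdhr1 in KO26 against WT was 1.99 without the batch term, no longer called, and 1.95 to 2.63 with a library left out. In KO22 against WT it was -0.774 to 0.012 with a library left out, reversed without WT library 2. Genes called for KO26 were 123 higher and 71 lower without the batch term, 269 lower with DESeq2, 490 and 235 with no limit on the fold, and 68 to 471 higher and 32 to 407 lower with a library left out, the most without KO22 library 1. With no limit on the fold, KO22 had 5506 higher and 5331 lower against WT and 3388 and 3744 against KO26. Counts of 7 to 58 reads limit Cdhr1 in the cells.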
